A study of Mus musculus with 8 samples.

Results

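Insulin, Akt and mTOR signalling was followed through 10 genes in skeletal muscle of mice that carry 1 working copy of Eif6: Insr, Irs1, Irs2, Akt1, Akt2, Tsc1, Tsc2, Mtor, Rptor and Rps6kb1. They were chosen by symbol, and every non-control probe whose RefSeq accession belongs to 1 of them was taken, which gave 18 of the 55681 probes on the array and 10 of its 20660 named genes. RNA from Eif6+/- (Het) muscle was labelled with Cy5 and hybridized against Cy3-labelled RNA from wild-type (WT) muscle on Agilent 2-colour arrays, 4 for gastrocnemius and 4 for tibialis anterior (TA). Per the methods the animals were C57BL6 male littermates of 8 to 16 weeks, and Het and WT mice were paired at random. All were fed chow freely and no treatment is listed. Each array is named here by its muscle and its pair number, 1 to 4. The labels do not say whether equal numbers in the 2 muscles stand for the same mice. Every Het sample carries Cy5 and every WT sample Cy3, so genotype and dye cannot be told apart within a muscle. The gastrocnemius arrays fill 1 row of the slide and the TA arrays the other, and so the effect of the muscle and that of the row cannot be told apart. The number of arrays, 4 for each muscle, limits the precision of all values. Between 43.5% and 48.6% of probes stood well above background in the Cy5 channel of an array, and between 38.7% and 46.0% in the Cy3 channel.

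As background, insulin or an insulin-like growth factor binds its receptor, a tyrosine kinase that phosphorylates adaptor proteins such as Irs1 and Irs2, and these recruit PI3 kinase to the membrane, where its lipid product brings in and activates Akt. Akt moves glucose transporters to the surface of muscle fibres, keeps FoxO factors out of the nucleus and inhibits the Tsc1-Tsc2 complex, which holds back Rheb, the activator of mTOR complex 1 (mTORC1). Active mTORC1, whose core holds mTOR and raptor (Rptor), phosphorylates S6 kinase and the 4E-BP proteins and so promotes translation and growth, while Eif6 is a ribosome factor that acts in the making and release of the large ribosomal subunit. Signalling runs through protein phosphorylation, which these arrays do not measure: all values are of RNA.

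Eif6 itself served as the check of the labels. Its brightest probe, A_52_P85864, gave log2 ratios of Het over WT of -0.97, -1.15, -0.89 and -1.06 on gastrocnemius arrays 1 to 4, and -1.22, -1.03, -0.95 and -0.80 on the TA arrays. Every array showed less Eif6 signal in the Het channel. The mean was -1.02 in gastrocnemius (limma adjusted p 0.0238) and -0.999 in TA (limma adjusted p 0.0107), lower on 4 of 4 arrays of each muscle. The gastrocnemius call was lost without array 3, where adjusted p was 0.120, or without array 4, where it was 0.155, while the mean stayed between -1.06 and -0.97 with any 1 array left out. A second probe, A_55_P1989013, gave -1.13 and -1.12. The files do not say whether these probes lie inside or outside the stretch of Eif6 that was inactivated.

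A gene is called here where limma's p, adjusted over all probes tested in the comparison, is under 0.1, and it is represented by its brightest tested probe. In gastrocnemius 1 of 10 genes was called between genotypes, Rptor, which was higher; of all 12601 genes tested, 15.5% were called, 9.9% higher and 5.56% lower. In TA 2 of 10 were called, Rps6kb1 higher and Mtor lower; of all 12371 genes tested, 16.3% were called, 8.99% higher and 7.28% lower. With 10 genes, 10% and 20% are near those shares. The median log2 ratio of the 10 genes was 0.14 in gastrocnemius and 0.07 in TA, beside 0.02 over all genes tested in each muscle. A direct test of whether the ratio differed between the muscles called 0 of 10 genes, and 0% of the 12194 genes tested by limma; 999 of all genes and 0 of the 10 had an unadjusted p under 0.05, and no other tool was run for this test. Between WT gastrocnemius and WT TA, compared within the Cy3 channel, 2 of 10 were called, Irs2 higher and Rptor lower in gastrocnemius, against 21.1% of 12194 genes, 7.92% higher and 13.2% lower. That lean depends on the scaling: with loess alone 821 genes were higher and 702 lower, and from the scanner software's processed signals 598 were higher and 3635 lower. Since whole muscle was measured, fewer cells of a type and less RNA per cell cannot be told apart for any of these values. Calls between genotypes were lost when some arrays were left out, while the means of the called genes moved less: with 1 array left out Rptor in gastrocnemius ran from 0.37 to 0.48, Rps6kb1 in TA from 0.37 to 0.46 and Mtor in TA from -0.30 to -0.20. Without gastrocnemius array 3 or without array 4 limma called 0 of the 10 genes and 0 genes on the whole array, with 1 of the 10 at an unadjusted p under 0.05 in each case and 2428 and 2656 of all genes. Without TA array 1 it called 0 of the 10, with 3 at an unadjusted p under 0.05, and 68 genes in all. With all arrays, SAM at a false discovery rate of 0.1 called 3 of the 10 in gastrocnemius and 2 in TA. Over all genes it called 3158 of 12601 in gastrocnemius and 2604 of 12371 in TA.

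**Figure D1:**
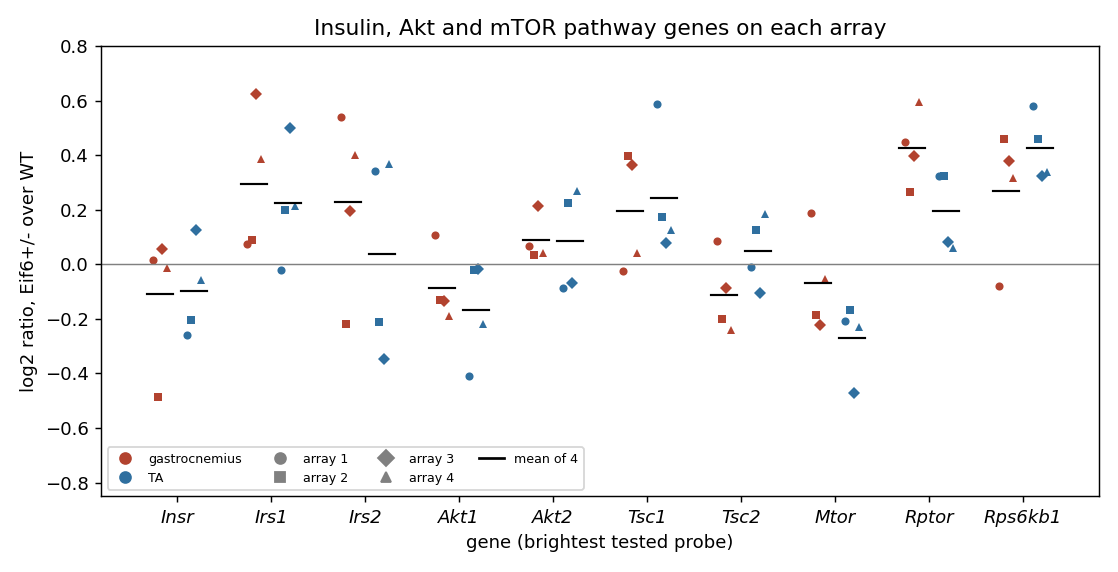
Log2 ratio of Het over WT (vertical axis) for the brightest tested probe of each of the 10 genes on each array; red marks are gastrocnemius and blue marks TA, the shape gives the array and the black line is the mean of 4 arrays. All 4 gastrocnemius marks of Rptor lie between 0.27 and 0.60 and all 4 TA marks of Rps6kb1 between 0.32 and 0.58, while the marks of Irs2 fall on both sides of 0 in each muscle.

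The plot of ratios by array shows how the genes vary among themselves. Signs were mixed in each muscle: 6 of the 10 means lay above 0 in gastrocnemius and 7 in TA. Over all 17 probes tested, the mean ratios ran from -0.32 to 0.43 in gastrocnemius and from -0.46 to 0.42 in TA, and the SD over 4 arrays from 0.0755 to 0.349 and from 0.0752 to 0.371. All 4 arrays had 1 sign for 5 of 17 probes in gastrocnemius and for 8 of 17 in TA. The matching shares over all genes and probes were not counted, so nothing particular to the 10 genes is read from these counts.

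The promoters of the 3 genes called between genotypes and of Irs2, which was called between muscles, are shown because these genes carry the results that follow. The RefSeq promoter table (GRCm38.p6) held 13 promoters for 9 of the 10 genes; Insr has no entry. Each sequence gives the 250 bases before the start of transcription, 5′ to 3′ on the strand of the gene. Capitals mark matches, on either strand, to 4 short motifs whose letters were chosen after the promoters had been seen: the E-box CACGTG, the forkhead core GTAAACA, the NRF1 core GCGCATGC and the ETS core CCGGAAGT.
Rptor, chr11:119602655-119602904, plus strand: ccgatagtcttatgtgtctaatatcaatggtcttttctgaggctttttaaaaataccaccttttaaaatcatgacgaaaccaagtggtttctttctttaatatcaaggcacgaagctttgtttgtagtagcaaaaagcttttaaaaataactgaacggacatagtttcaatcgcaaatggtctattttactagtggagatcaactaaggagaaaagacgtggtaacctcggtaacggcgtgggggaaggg
Mtor, chr4:148448332-148448581, plus strand: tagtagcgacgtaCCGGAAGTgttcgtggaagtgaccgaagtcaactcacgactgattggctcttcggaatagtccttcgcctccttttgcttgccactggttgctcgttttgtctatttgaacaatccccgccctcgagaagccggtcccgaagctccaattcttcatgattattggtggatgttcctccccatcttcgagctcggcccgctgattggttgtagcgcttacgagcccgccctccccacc
Rps6kb1, chr11:86544808-86545057, minus strand: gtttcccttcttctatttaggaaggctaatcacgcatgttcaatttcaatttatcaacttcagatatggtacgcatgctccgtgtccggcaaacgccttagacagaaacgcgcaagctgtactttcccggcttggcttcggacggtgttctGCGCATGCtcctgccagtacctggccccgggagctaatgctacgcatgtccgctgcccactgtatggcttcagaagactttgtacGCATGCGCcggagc
Irs2, chr8:11008930-11009179, minus strand: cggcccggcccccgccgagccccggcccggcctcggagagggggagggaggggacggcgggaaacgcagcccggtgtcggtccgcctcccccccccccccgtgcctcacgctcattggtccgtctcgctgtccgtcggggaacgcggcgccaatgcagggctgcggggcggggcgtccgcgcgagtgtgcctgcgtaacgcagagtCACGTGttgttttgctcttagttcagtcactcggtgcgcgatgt
The Rps6kb1 promoter held 2 matches to the NRF1 core, which is in 2.26% of all 32851 promoters of this length. The Mtor promoter held 1 match to the ETS core (2.88% of promoters) and the Irs2 promoter 1 E-box (6.02% of promoters). None of the 4 motifs was in the Rptor window, and the forkhead core (3.17% of promoters) was in none of the 4 windows shown. Of the 9 promoters not shown, that of Irs1 also held an E-box, that of Tsc2 an ETS core, and 1 of the 2 of Akt1 a forkhead core. A match describes letters in a window and says nothing of binding.

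The receptor comes first. Insr encodes the insulin receptor and has 3 probes. Its brightest, A_52_P494514, gave log2 ratios of 0.01, -0.49, 0.06 and -0.01 in gastrocnemius and -0.26, -0.21, 0.13 and -0.06 in TA. In gastrocnemius array 2 stood far below the other 3, which lay near 0, and in TA array 3 alone was above 0. The means were -0.11 ± 0.255 (SD, n = 4 arrays) and -0.10 ± 0.173, neither called by limma (adjusted p 0.555, lower on 2 of 4 arrays, and 0.467, lower on 3 of 4). Without gastrocnemius array 2 the mean was 0.02. The second probe, A_55_P2173927, gave 0.16, -0.22, 0.33 and -0.11 in gastrocnemius and -0.28, -0.13, -0.22 and -0.29 in TA. Its gastrocnemius ratios were split by sign, whereas in TA every array was below 0 and every Het intensity was below every WT intensity. By limma its TA mean of -0.23 (SE 0.0687, lower on 4 of 4 arrays) passed at an adjusted p of 0.0792, which rose to between 0.145 and 0.266 when any 1 of the TA arrays was left out. Its gastrocnemius mean was 0.04 (limma adjusted p 0.843, higher on 2 of 4 arrays), and the difference between muscles, 0.27 with a 95% interval of -0.01 to 0.55, was not called (limma adjusted p 0.646). The third probe, A_55_P2172566, had means of 0.03 and -0.06. All 3 probes had TA means below 0 and 1 was called; whether they differ was not tested.

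Irs1 and Irs2 encode the substrates that carry the signal from the receptor to PI3 kinase. The brighter Irs1 probe, A_52_P175242, gave 0.07, 0.09, 0.63 and 0.39 in gastrocnemius and -0.02, 0.20, 0.50 and 0.21 in TA. Array 3 was the highest of its 4 in each muscle, and 7 of 8 arrays were above 0. The means, 0.29 and 0.22, were not called by limma (adjusted p 0.143, higher on 4 of 4 arrays, and 0.156, higher on 3 of 4). With 1 array left out they ran from 0.18 to 0.37 and from 0.13 to 0.30. In gastrocnemius the probe was called under 1 of 14 limma alternatives (adjusted p 0.0896). The other Irs1 probe, A_52_P171212, had means of 0.10 and 0.14.

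Irs2 has 1 probe, A_66_P102260, and its ratios were 0.54, -0.22, 0.19 and 0.40 in gastrocnemius and 0.34, -0.21, -0.35 and 0.37 in TA. Arrays 1 and 4 were the highest in each muscle and array 2 was below 0 in each. The means of 0.23 ± 0.331 (SD, n = 4) and 0.04 ± 0.371 were not called by limma (adjusted p 0.292, higher on 3 of 4 arrays, and 0.874, higher on 2 of 4). With 1 array left out the gastrocnemius mean ran from 0.12 to 0.38. It was called under 1 of 14 limma alternatives (adjusted p 0.0905). Without TA array 1 or TA array 4 the TA mean was below 0, at -0.06 and -0.07. The WT channel read 10.60, 10.66, 10.41 and 10.67 log2 intensity in gastrocnemius and 9.99, 9.96, 10.06 and 10.08 in TA. The Het channel read 11.14, 10.44, 10.61 and 11.07 in gastrocnemius and 10.33, 9.75, 9.72 and 10.45 in TA. WT values sat close together within a muscle, while the Het values of each muscle fell into a higher pair, arrays 1 and 4, and a lower pair, arrays 2 and 3. The SD of the log2 intensity was 0.118 in WT and 0.345 in Het gastrocnemius, and 0.0566 in WT and 0.384 in Het TA; whether the spreads differ was not tested.

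Between the muscles, WT Irs2 stood apart: every gastrocnemius value lay above every TA value. By limma the difference in WT log2 intensity was 0.56 (SE 0.0807, 95% interval 0.38 to 0.74, adjusted p 0.00506), and it was called under all 17 alternative settings tried, with adjusted p between 0.00491 and 0.0267; the difference ran from 0.37, from processed signals, to 0.62. In order of mean log2 intensity, Het gastrocnemius (10.81) came first, then WT gastrocnemius (10.59), Het TA (10.06) and WT TA (10.03); neighbours within a muscle differed by less than the Het spread, and in gastrocnemius by more than the WT spread. Over the 8 ratios, the 5 genes closest to Irs2 in pattern by Pearson r, of 4851 considered, were Mars1 (r 0.973), Abcb4 (0.959), Slc25a33 (0.947), Ift172 (0.943) and Pitpnm3 (0.942). They are the top of a ranking of 4851 genes over 8 values. Whether such r values exceed those of a random ranking was not tested, so no link to Irs2 is read from them.

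Akt1 and Akt2 encode the kinases themselves. For Akt1, probe A_55_P2066384 gave 0.11, -0.13, -0.13 and -0.19 in gastrocnemius and -0.41, -0.02, -0.02 and -0.22 in TA. All but gastrocnemius array 1 were below 0, yet WT and Het intensities overlapped in each muscle. The means of -0.09 and -0.17 were not called by limma (adjusted p 0.529, lower on 3 of 4 arrays, and 0.243, lower on 4 of 4). With 1 array left out they ran from -0.15 to -0.05 and from -0.22 to -0.09.

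Akt2, the form best known for insulin-driven glucose uptake, has 3 probes that do not move together. The brightest, A_55_P2025228, had means of 0.09 in gastrocnemius and 0.08 in TA, and A_55_P2066518 had 0.15 and 0.04; none was called by limma (adjusted p 0.476 and 0.552, then 0.242 and 0.795), and each probe was higher on 4 of 4 gastrocnemius and 2 of 4 TA arrays. The third, A_55_P2066523, gave -0.06, -0.57, -0.46 and -0.21 in gastrocnemius and -0.68, -0.39, -0.52 and -0.24 in TA. All 8 arrays were below 0 for this probe, and every Het intensity was below every WT intensity in each muscle. Its mean was -0.32 in gastrocnemius (SE 0.0997, limma adjusted p 0.0980, lower on 4 of 4 arrays) and -0.46 in TA (SE 0.0853, limma adjusted p 0.0279, lower on 4 of 4). The gastrocnemius call was lost without array 2, 3 or 4 (adjusted p 0.215, 0.296 and 0.216) and the TA call without array 1 (0.152). When the 3 probes were averaged, the Akt2 means were -0.03 and -0.11 and were not called. What sets the probes apart is not in the files, which hold neither their sequences nor their places in the transcript.

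**Figure D2:**
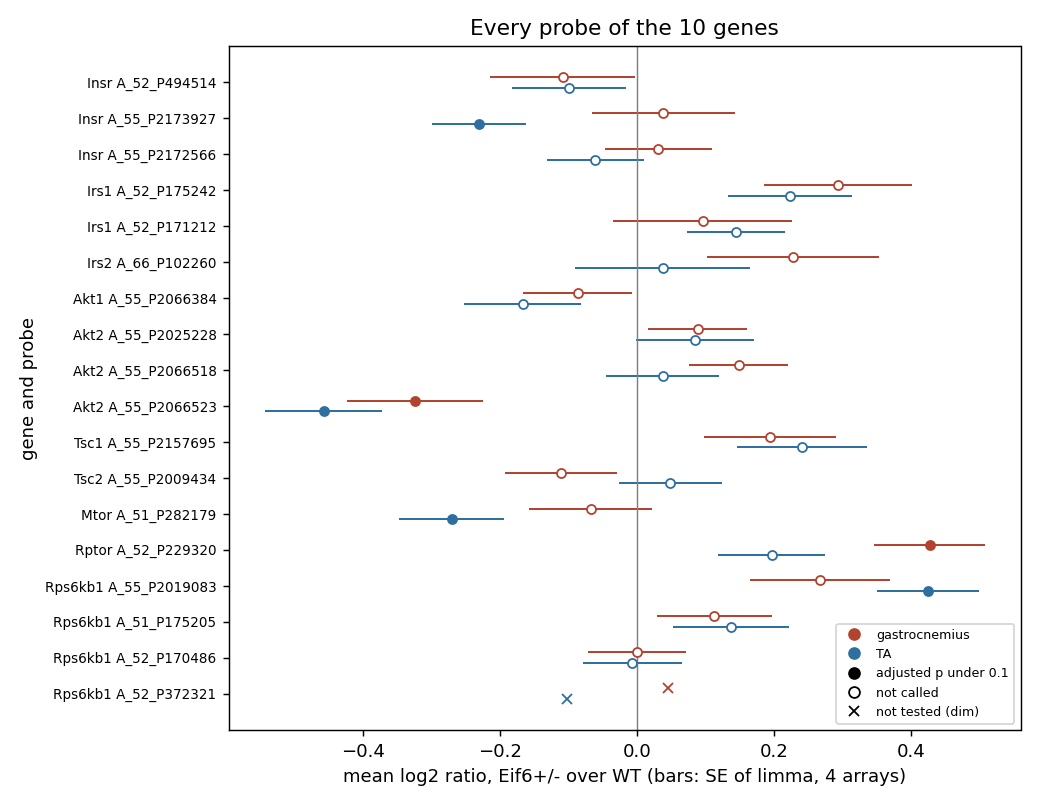
Mean log2 ratio of Het over WT (horizontal axis) for all 18 probes of the 10 genes; red is gastrocnemius, blue is TA, bars are the standard error from limma over 4 arrays, filled marks are called at an adjusted p under 0.1, and crosses mark the probe that was too dim to be tested. The 3 Akt2 probes lie on both sides of 0, from -0.46 to 0.15, and 1 of the 4 Rps6kb1 probes was called.

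In the plot of every probe, 2 of 17 tested probes are filled in gastrocnemius and 4 of 17 in TA, beside 13.8% and 15.2% of all probes tested. Only 4 of the 10 genes have more than 1 probe, so for the other 6 no second reading exists.

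Tsc1 and Tsc2 form the complex that restrains Rheb. For Tsc1, probe A_55_P2157695 gave -0.02, 0.40, 0.36 and 0.04 in gastrocnemius and 0.59, 0.17, 0.08 and 0.12 in TA. Arrays 2 and 3 were the high ones in gastrocnemius and array 1 alone in TA, and the WT and Het groups overlapped in each muscle. By limma the means of 0.19 and 0.24 were not called (adjusted p 0.248, higher on 3 of 4 arrays, and 0.147, higher on 4 of 4). With 1 array left out they ran from 0.13 to 0.27 and from 0.13 to 0.30. The Tsc2 probe, A_55_P2009434, was dim: it stood well above background in Cy3 on 3 of 4 gastrocnemius and 2 of 4 TA arrays, and in Cy5 on 2 of 4 and 4 of 4. Its means were -0.11 and 0.05, not called by limma (adjusted p 0.426, lower on 3 of 4 arrays, and 0.707, higher on 2 of 4). Over 13 limma alternatives the gastrocnemius mean ran from -0.35 to -0.07 and was called in 0. The TA mean ran from -0.01 to 0.12. It changed sign, to -0.01, without background correction or from the scanner software's processed signals.

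Mtor encodes the kinase shared by mTORC1 and mTOR complex 2. Probe A_51_P282179 gave 0.19, -0.18, -0.22 and -0.05 in gastrocnemius and -0.21, -0.17, -0.47 and -0.23 in TA. In TA all 4 arrays were below 0, with array 3 the lowest; in gastrocnemius array 1 was above 0 and the others below. The WT channel in TA read 8.50, 8.28, 8.46 and 8.25 and the Het channel 8.29, 8.11, 7.99 and 8.02 log2 intensity. The groups met at the edge, since the highest Het value, on array 1, lay above the WT values of arrays 2 and 4. The TA mean was -0.27 ± 0.137 (SD, n = 4), called by limma (SE 0.0766, adjusted p 0.0705, lower on 4 of 4 arrays). That call was lost when any 1 TA array was left out: adjusted p was 0.217 without array 1, 0.136 without array 2, 0.191 without array 3 and 0.102 without array 4. The gastrocnemius mean was -0.07 (limma adjusted p 0.670, lower on 3 of 4 arrays), and the difference between muscles, 0.20, was not called (limma adjusted p 0.682).

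Rptor encodes raptor, the subunit that brings substrates to mTORC1. Its 1 probe, A_52_P229320, read 9.65, 9.43, 9.50 and 9.55 log2 intensity in WT gastrocnemius and 10.10, 9.70, 9.89 and 10.14 in Het gastrocnemius. The lowest Het value lay above the highest WT value. On gastrocnemius arrays 1 to 4 the log2 ratios were 0.45, 0.27, 0.40 and 0.60, a mean of 0.43 ± 0.137 (SD, n = 4), or 1.34-fold. By limma it rose in gastrocnemius (SE 0.0803, adjusted p 0.0388, higher on 4 of 4 arrays), but it was not called without array 3 (adjusted p 0.141) or without array 4 (0.168), nor by a plain test of Het against WT intensities in place of limma (adjusted p 0.109). In TA the ratios were 0.32, 0.32, 0.08 and 0.06. All were above 0, with arrays 1 and 2 well above arrays 3 and 4, and Het values again lay above all WT values. The TA mean of 0.20 was not called by limma (adjusted p 0.148, higher on 4 of 4 arrays). The muscles were not shown to differ in this ratio: the difference was 0.23 with a 95% interval of -0.01 to 0.47 (limma adjusted p 0.646).

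The WT level of Rptor was lower in gastrocnemius, at a mean of 9.53 log2 intensity, than in TA, at 9.82. Each TA value (9.76, 9.67, 9.93 and 9.93) was above each gastrocnemius value. The difference of -0.29 was called by limma (adjusted p 0.0636), though in 8 of 17 alternative settings only, with adjusted p from 0.0117 to 0.280 and the difference between -0.56, from processed signals, and -0.25. It was not called without gastrocnemius array 2 (adjusted p 0.116), 3 (0.140) or 4 (0.101), or without TA array 3 (0.158) or 4 (0.149). In Het the means were 9.96 in gastrocnemius and 10.02 in TA, less apart than the SD of 0.205 in Het gastrocnemius and more than the SD of 0.0434 in Het TA.

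Rps6kb1 encodes S6 kinase 1, the best known substrate of mTORC1, and has 4 probes. The brightest, A_55_P2019083, read 10.82, 11.11, 11.11 and 11.11 log2 intensity in WT TA and 11.40, 11.57, 11.43 and 11.45 in Het TA. Every Het value lay above every WT value, and WT array 1 was the lowest of all. The log2 ratios were 0.58, 0.46, 0.32 and 0.34 in TA and -0.08, 0.46, 0.38 and 0.32 in gastrocnemius. Array 1 was the highest of the TA arrays and, in gastrocnemius, the only array below 0. By limma the probe rose in TA, by 0.42 ± 0.120 (SD, n = 4) or 1.34-fold (SE 0.0740, adjusted p 0.0242, higher on 4 of 4 arrays), but without TA array 1 it was not called (adjusted p 0.138). The gastrocnemius mean of 0.27 was not called (limma adjusted p 0.153, higher on 3 of 4 arrays), and without gastrocnemius array 1 it was, at 0.38 (adjusted p 0.0593). The difference between muscles was -0.16 (limma adjusted p 0.770). The other probes gave less: A_51_P175205 had means of 0.11 and 0.14, A_52_P170486 had 0.00 and -0.01, and A_52_P372321 was not well above background on any array. Averaged over its tested probes, Rps6kb1 in TA was 0.19 and not called (limma adjusted p 0.137).

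**Figure D3:**
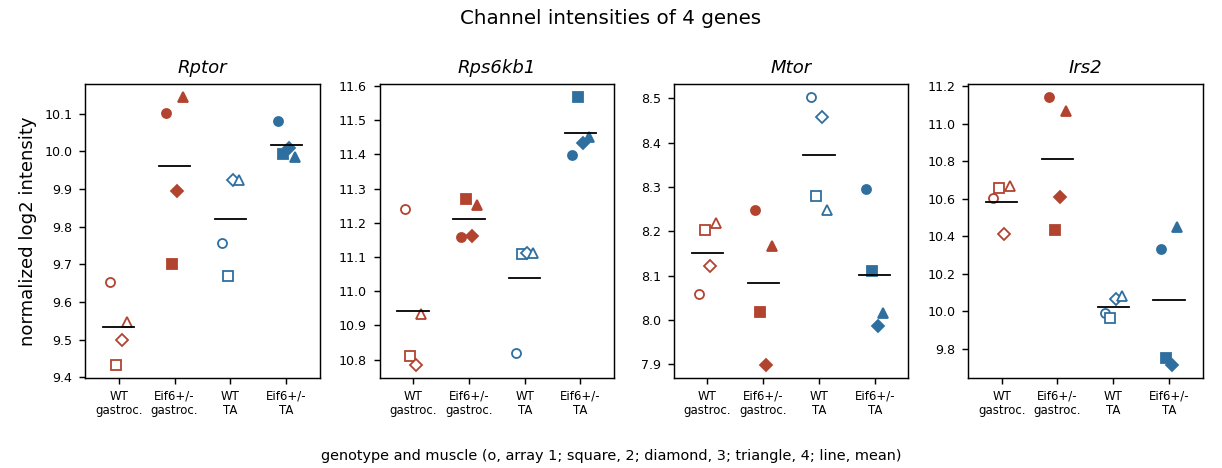
Normalized log2 intensity (vertical axis, its own scale for each gene) in the WT (open) and Het (filled) channels of each array for Rptor, Rps6kb1, Mtor and Irs2; red is gastrocnemius, blue is TA, the shape gives the array and the line is the mean of 4. Rptor in Het gastrocnemius lies at or above 9.70 with WT at or below 9.65, and WT Irs2 lies at or above 10.41 in gastrocnemius and at or below 10.08 in TA.

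The plot of channel intensities sets the genotype groups of each muscle side by side for the 4 genes with a call. Levels are comparable along a panel and not between panels, since probes differ in how they bind.

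Around the 10 genes, lists of 96 other genes of the pathway were followed, of which 95 were tested in gastrocnemius and 93 in TA. In gastrocnemius 27 were called, 12 higher and 15 lower (28.4%, beside 15.5% of all genes), with a median log2 ratio of -0.04. In TA 19 were called, 9 higher and 10 lower (20.4%, beside 16.3%), with a median of -0.05. Of these, 12 genes were called in each muscle, 6 higher and 6 lower in both, which is 44.4% of the gastrocnemius calls and 63.2% of the TA calls. Over all genes 777 were called in each muscle, 39.9% of the gastrocnemius calls and 38.6% of the TA calls, and 776 of them had the same sign in both. Whether the pathway shares differ from these was not tested, and Het carries the same dye in both muscles. The lists were chosen with earlier results of these data known, so no enrichment of the pathway is read from its shares. The test of the difference between muscles called 0 of 93 by limma, with 8 at an unadjusted p under 0.05, so a gene called in 1 muscle alone is not shown to differ from the other muscle. From the scanner software's processed signals the split moved: 10 higher and 2 lower in gastrocnemius, 1 higher and 0 lower in TA, with 91.2% of all called genes higher in gastrocnemius in place of 64.0%, and 79.0% in TA in place of 55.3%. All 27 gastrocnemius calls were lost without array 3 (adjusted p 0.120 to 0.292) or without array 4 (0.155 to 0.253), 8 without array 1 and 12 without array 2. All 19 TA calls were lost without array 1 (adjusted p 0.180 to 0.320) or array 2 (0.109 to 0.281), 13 without array 3 and 8 without array 4. Over all genes, without arrays 1 to 4 in turn, limma called 1782, 1365, 0 and 0 in gastrocnemius, in place of 1947. In TA it called 68, 533, 1188 and 2014, in place of 2012. With newly called pathway genes counted, their TA split was 5 higher and 3 lower without array 3, and 3 higher and 14 lower without array 4. Each called gene named in the paragraphs that follow had its direction on all 4 arrays of its muscle, except Pdpk1 and Ddit4 in gastrocnemius and Ddit4 and Tfeb in TA, with 3 of 4. Standard errors of the called genes ran from 0.0683 to 0.204 in gastrocnemius and from 0.0692 to 0.142 in TA.

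**Figure D4:**
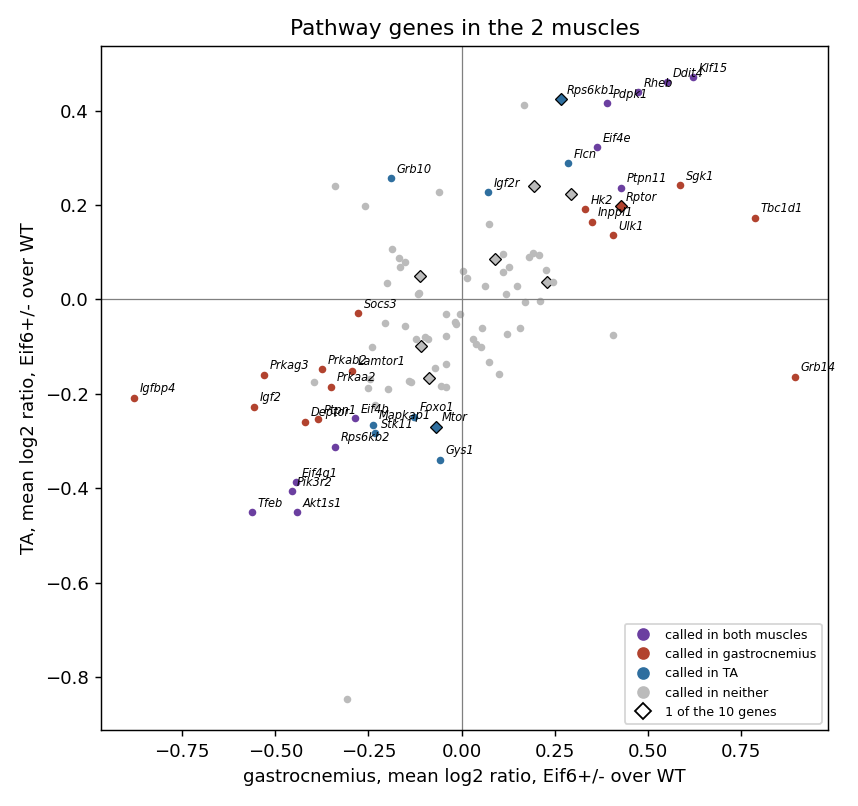
Mean log2 ratio of Het over WT in gastrocnemius (horizontal axis) and in TA (vertical axis) for the pathway genes tested in each muscle (round marks) and the 10 genes (diamonds); colours give the muscle in which limma called the gene. Rheb, at 0.47 and 0.44, lies with 5 other genes called higher in both muscles, and 6 genes called lower in both lie at the lower left.

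In the plot of pathway genes every called gene except Grb10 and Grb14 has means of 1 sign in the 2 muscles. Each count by list that follows stands beside 15.5% of all genes called in gastrocnemius and 16.3% in TA. Among ligands and receptors, 2 of 7 were called in gastrocnemius: the growth factor Igf2, at -0.56 (limma adjusted p 0.0460), and the binding protein Igfbp4, at -0.88 (0.0545). Igfbp4 was lowest on array 3, at -1.75, with the other arrays between -0.81 and -0.47. In TA 1 of 7 was called, the Igf2 receptor Igf2r at 0.23 (limma adjusted p 0.0970). The receptor Igf1r was not called (means 0.11 and 0.10).

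Adaptors and dampers of the receptor had 4 of 12 called in gastrocnemius and 2 of 11 in TA. Grb14, which binds the active insulin receptor and inhibits it, gave 1.44, 0.38, 1.03 and 0.73 on the gastrocnemius arrays. All were above 0, with array 1 the highest. Its mean was 0.90 (SE 0.158, limma adjusted p 0.0355, higher on 4 of 4 arrays). The phosphatase Ptpn1 was at -0.39 (limma adjusted p 0.0566) and the inhibitor Socs3 at -0.28 (0.0717). Ptpn11, a phosphatase that relays growth factor signals, was higher in each muscle, 0.43 (limma adjusted p 0.0436) and 0.24 (0.0990), and Grb10, a relative of Grb14, was at 0.26 in TA (0.0630). WT Grb14 itself differed between muscles, by -1.27 in gastrocnemius against TA (limma adjusted p 0.00403). In the PI3 kinase list 2 of 9 were called in gastrocnemius and 1 of 9 in TA: the regulatory subunit Pik3r2 at -0.46 (limma adjusted p 0.0591) and -0.41 (0.0517), and the lipid phosphatase Inppl1 at 0.35 in gastrocnemius (0.0417). The regulatory subunit Pik3r1 had means of 0.06 and 0.03 and was not called.

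Of 5 regulators of Akt, 2 were called in gastrocnemius and 1 in TA. Pdpk1, the kinase that activates Akt, was at 0.39 (limma adjusted p 0.0924) and 0.42 (0.0509); a second probe gave 0.38 and 0.55, and the third -0.17 and -0.00. Sgk1, a kinase related to Akt, was at 0.59 in gastrocnemius (limma adjusted p 0.0581). In the glucose list 2 of 8 were called in gastrocnemius and 1 of 8 in TA. Tbc1d1, a brake on glucose transporter traffic that Akt relieves, gave 0.68, 1.13, 0.45 and 0.90 in gastrocnemius. Every array was well above 0. Its mean was 0.79 (SE 0.115, limma adjusted p 0.0285, higher on 4 of 4 arrays), yet its second probe was at -0.01, and in TA the probes were at 0.17 and -0.32 (limma adjusted p 0.341 and 0.0805). Hexokinase 2 (Hk2) was at 0.33 in gastrocnemius (limma adjusted p 0.0664) and glycogen synthase Gys1 at -0.34 in TA (0.0600). The transporter gene Slc2a4 (0.21 and 0.09), the kinase Gsk3b (0.07 and 0.16) and the Tbc1d1 relative Tbc1d4 (0.16 and -0.06) were not called, though a second Tbc1d4 probe was, at -0.36 (limma adjusted p 0.0646) and -0.31 (0.0966).

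Among FoxO factors and their targets 1 of 6 was called in gastrocnemius and 2 of 6 in TA. Klf15, a factor that glucocorticoids induce in muscle, was higher in each muscle, 0.62 (limma adjusted p 0.0404) and 0.47 (0.0806), the latter 0.29 without TA array 1. Foxo1 was at -0.25 in TA (limma adjusted p 0.0736) while its second probe was at 0.16, and Foxo3 has 1 probe, well above background on 1 of 8 arrays and so not tested.

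Subunits and partners of the mTOR complexes had 3 of 11 called in each muscle. Rheb, the switch that Tsc2 turns off, gave 0.45, 0.40, 0.59 and 0.45 in gastrocnemius and 0.63, 0.53, 0.16 and 0.44 in TA. All 8 arrays were above 0, with TA array 3 the lowest. Its means were 0.47 (SE 0.0723, limma adjusted p 0.0308, higher on 4 of 4 arrays) and 0.44 (SE 0.0886, limma adjusted p 0.0340, higher on 4 of 4), and a second probe gave 0.48 and 0.41. Without gastrocnemius array 3 or 4 adjusted p was 0.125 and 0.155, and without TA array 1 or 2 it was 0.180 and 0.109. The mTORC1 inhibitor Akt1s1 (PRAS40) was lower in each muscle, -0.44 (limma adjusted p 0.0992) and -0.45 (0.0538). Its gastrocnemius ratios were -0.02, -0.92, -0.47 and -0.35, and without array 2 the mean was -0.28. Deptor, an inhibitor of both complexes, was at -0.42 in gastrocnemius (limma adjusted p 0.0540) and the mTOR complex 2 subunit Mapkap1 at -0.27 in TA (0.0923), which was -0.18 without TA array 1. The shared subunit Mlst8 (0.04 and -0.10) and Rictor, which defines complex 2 (-0.24 and -0.10), were not called.

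The amino acid branch, in which Rag GTPases bring mTORC1 to the lysosome, had 1 of 17 called in gastrocnemius, the anchor subunit Lamtor1 at -0.29 (limma adjusted p 0.0718), and 1 of 16 in TA, folliculin (Flcn) at 0.29 (0.0628); a second Flcn probe was at 0.01 in each muscle. Stress and energy inputs had 4 of 10 called in gastrocnemius and 2 of 10 in TA. Ddit4 (REDD1), which restrains mTORC1 under stress, gave 0.66, 0.86, -0.08 and 0.78 in gastrocnemius and 0.57, 0.55, -0.08 and 0.80 in TA. In each muscle array 3 alone was below 0. By limma its means of 0.55 (adjusted p 0.0774, higher on 3 of 4 arrays) and 0.46 (0.0692, higher on 3 of 4) were called. The energy sensor AMPK has 7 subunits in this list and was not a list of its own. Of these, 3 were called lower in gastrocnemius, beside 5.56% of all genes called lower. These were Prkaa2 at -0.35 (limma adjusted p 0.0613), Prkab2 at -0.38 (0.0691) and Prkag3 at -0.53 (0.0510). The Prkab2 call was lost when any 1 array was left out (limma adjusted p 0.107 to 0.234). That of Prkaa2 was lost without array 2, 3 or 4 (0.129, 0.158 and 0.211). That of Prkag3 was lost without array 3 or 4 (0.166 and 0.164). In gastrocnemius Prkaa1 (-0.01), Prkab1 (-0.04), Prkag1 (0.05) and Prkag2 (-0.19) were not called. In TA Prkaa2 (-0.18), Prkab2 (-0.15) and Prkag3 (-0.16) were not called by limma, nor were the other subunits. The AMPK-activating kinase Stk11 (LKB1) was at -0.28 in TA (limma adjusted p 0.0789).

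Outputs of mTORC1 had 6 of 10 called in gastrocnemius, 2 higher and 4 lower, beside 15.5% of all genes. In TA 5 of 10 were called, 1 higher and 4 lower, beside 16.3%. Whether the list differs from those shares was not tested, and it was chosen with earlier results of these data known. The cap-binding factor Eif4e gave 0.36, 0.45, 0.31 and 0.34 in gastrocnemius and 0.22, 0.70, 0.15 and 0.21 in TA. The gastrocnemius arrays lay close together, and TA array 2 stood above the rest. Its means were 0.36 (SE 0.0700, limma adjusted p 0.0399, higher on 4 of 4 arrays) and 0.32 (SE 0.0993, limma adjusted p 0.0857, higher on 4 of 4), the latter 0.20 without TA array 2. A second Eif4e probe, at 0.30 and 0.14, was not called by limma (adjusted p 0.161 and 0.427). The other initiation factors on the list were lower in each muscle: Eif4b at -0.29 (limma adjusted p 0.0574) and -0.25 (0.0773), and Eif4g1 at -0.44 (0.0461) and -0.39 (0.0600). So were S6 kinase 2, Rps6kb2, at -0.34 (limma adjusted p 0.0679) and -0.31 (0.0821), and the lysosomal factor Tfeb at -0.56 (0.0491) and -0.45 (0.0598), with TA array 4 of Tfeb the exception at 0.05. A second Rps6kb2 probe was at -0.24 (limma adjusted p 0.228) and -0.40 (0.0259). Further Eif4b probes were at -0.29 (limma adjusted p 0.127) and -0.18 (0.159) in gastrocnemius, and at -0.21 (0.177) and -0.24 (0.0726) in TA. Ulk1, the kinase that starts autophagy, was at 0.41 in gastrocnemius (limma adjusted p 0.0421). The translation repressor gene Eif4ebp1 (-0.25 and -0.19) and ribosomal protein Rps6 (0.00 and 0.06) were not called. Nor were further Rps6 probes, at -0.15 and 0.24 in gastrocnemius and at -0.04 and 0.17 in TA.

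Some of these means moved by over 1.5 times with the processing. From processed signals Igf2 was at -1.14, Socs3 at -0.18, Hk2 at 0.51 and Lamtor1 at -0.14 in gastrocnemius, and Grb10 at 0.46, Foxo1 at -0.16 and Eif4b at -0.16 in TA; of these Igf2 and Hk2 were still called. With offset 0 Igf2 was at -0.97 and Grb10 at 0.40, each still called. With the probes of a gene averaged, Pdpk1 was at 0.20 and Tbc1d1 at 0.39 in gastrocnemius, and Foxo1 at -0.05 and Flcn at 0.15 in TA, of which Tbc1d1 was still called.

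Between WT gastrocnemius and WT TA, 17 of the 93 other pathway genes were called, 8 higher and 9 lower (18.3%, beside 21.1% of all genes). The brakes on glucose transporter traffic differed in opposite directions: Tbc1d1 differed by -1.65 (limma adjusted p 0.000494) and Tbc1d4 by 0.75 (0.0163). Sgk1 differed by -0.79 (limma adjusted p 0.00893), Klf15 by -0.70 (0.0427), Deptor by 0.53 (0.0389) and Prkag3 by 0.70 (0.0540). From the scanner software's processed signals 5 of the other pathway genes were higher and 29 lower, and the median difference of all genes moved from -0.03 to -0.21. There 5 of the 10 genes were called in place of 2, as calls over all genes rose from 2577 to 4233.

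Marker genes were read for the tissue and for other cells. All 9 skeletal muscle fibre markers were well above background on all 8 arrays. The log2 of the summed level of that list differed between Het and WT by -0.01 to 0.37 over the gastrocnemius arrays and by -0.13 to 0.13 over the TA arrays. In each muscle 3 of its 9 genes were called between genotypes, 1 higher and 2 lower. Slow fibre markers (5 of 5 present, Myl3 among them) were uneven within pairs: Het minus WT was 3.16, -1.37, 0.11 and -0.24 in gastrocnemius and 0.01, -0.50, -0.09 and -1.46 in TA. Gastrocnemius array 1 is the widest of these gaps. By limma 0 of 5 slow fibre markers were called in gastrocnemius, with 0 at an unadjusted p under 0.05 and 0 by SAM, and 3 of 5 were lower in TA.

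Fat and connective tissue markers also differed within pairs. For adipocyte markers (6 listed, Cfd among them, Lep not well above background on any array) the gaps were -0.49, -0.02, -0.995 and -1.64 in gastrocnemius and 0.45, -0.51, 1.76 and 0.26 in TA, with 2 of 5 tested lower in gastrocnemius and 3 of 5 higher in TA. Fibroblast markers (5 listed, Dcn among them) gave -0.20, 0.05, -1.39 and 0.20, then 0.32, -0.77, 1.82 and -0.18, and 0 of 5 were called by limma in either muscle, with 1 and 0 at an unadjusted p under 0.05 and 1 and 0 by SAM. Array 3 had the widest fibroblast gap in gastrocnemius and the widest gap of both lists in TA. Gastrocnemius array 3 also held the lowest Igfbp4 ratio. Red blood cell markers (3 of 3, Hba-a1 among them) were lower in Het on all 8 arrays, by -0.90 to -0.02 in gastrocnemius and by -1.31 to -0.40 in TA, with 0 of 3 called by limma in gastrocnemius, where 3 had an unadjusted p under 0.05 and SAM called 2, and 3 of 3 called in TA. Neutrophil markers (Ngp not well above background on any array, S100a8 on 5 and S100a9 on 7 of 8) ran from -2.05 to 0.08 and from -1.93 to -0.30. Of these 1 was tested, in TA, and S100a9 was called at -1.61. The filter admits a probe that is bright in 1 channel alone. Summed Het levels of the list in TA were only 7.72 to 8.42, so the size of that ratio is not exact. The red blood cell list thus leaned toward lower levels in Het, and no direction is read from the dim neutrophil list. Endothelial markers (5 of 5, Kdr among them) ran from -0.38 to 0.03 and from -0.30 to -0.04, with 1 of 5 and 2 of 5 lower. Macrophage markers (4 of 5 on the array, Csf1r among them) ran from -1.02 to 0.42 and from -0.38 to 0.42, with 1 of 4 lower in gastrocnemius and 0 of 4 called by limma in TA, where 1 had an unadjusted p under 0.05 and SAM called 1. Schwann cell markers (5 of 5, Pmp22 among them) ran from -0.31 to 0.23 and from -0.54 to -0.09, with 0 of 5 called by limma in gastrocnemius, 0 at an unadjusted p under 0.05 and 0 by SAM, and 3 of 5 lower in TA. The part of any of these cells in the ratios of the 10 genes was not tested.

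WT muscles differed in some of the same lists. Of all genes, 21.1% were called between WT muscles, 7.92% higher and 13.2% lower in gastrocnemius. By limma 4 of 5 slow fibre and 5 of 5 tested adipocyte markers were higher in WT gastrocnemius than in WT TA, with median differences of 2.12 and 2.38. So were 3 of 4 macrophage, 3 of 5 fibroblast and 1 of 5 Schwann cell markers, whereas 2 of 9 muscle fibre markers were lower, and 0 of 5 endothelial and 0 of 3 red blood cell markers were called, with 0 of each at an unadjusted p under 0.05. Their part in the WT differences of Irs2 and Rptor was not tested.

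**Figure D5:**
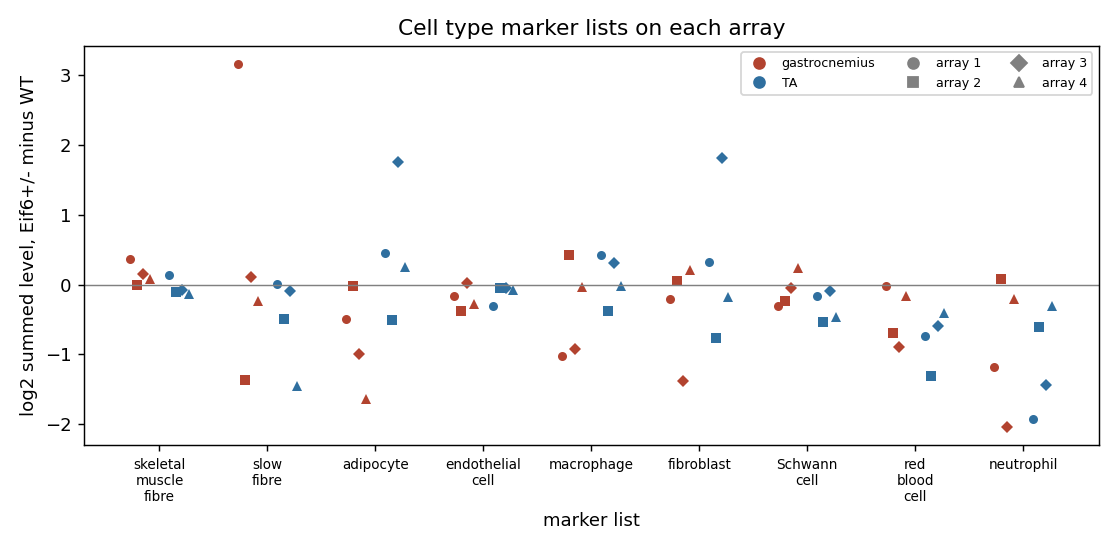
Difference between Het and WT in the log2 summed level (vertical axis) of each marker list on each array; red is gastrocnemius, blue is TA and the shape gives the array. Muscle fibre markers stay between -0.13 and 0.37, slow fibre markers reach 3.16 on gastrocnemius array 1, and fibroblast markers reach 1.82 on TA array 3.

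The plot of marker lists shows that summed levels on 1 array differ most for slow fibre, adipocyte, fibroblast and neutrophil markers, and least for muscle fibre markers. Single muscle fibre markers differed by more than their sum: log2 ratios of Myh2 ran from 0.52 to 3.92 in gastrocnemius and from -1.55 to 1.44 in TA, those of Myh1 from 0.36 to 1.87 and from -0.74 to 0.66, and those of Mb from -0.26 to 1.98 and from -1.15 to -0.08.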

How the data were processed

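RNA of gastrocnemius and TA from Het and WT mice was measured on 8 Agilent 2-colour arrays of 62976 spots. Per the file headers, Agilent Feature Extraction 10.5.1.1 made the scanner files; their deposited values are spot and local background intensity in each channel, untransformed. The value table deposited by the authors holds log2 ratios of Cy5 over Cy3 for each spot; it was checked against the scanner files (r at least 0.9999 with loess of uncorrected intensities), and its medians were 0.00257, 0.000831, -0.00441 and 0.00375 for gastrocnemius and 0.00138, -0.000366, 0.00288 and 0.00212 for TA. The methods name Cy3 labelling, SAM and quantile normalization; the labels name both dyes and were followed.

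Median intensities were corrected with normexp (offset 50), loess-normalized within arrays and quantile-normalized across channels with limma 3.58.1 in R 4.3.3 with data.table version 1.17.8. Outlier spots (233 to 318 an array) were dropped and spots of a probe averaged. Of 28685 probes with a RefSeq accession, 27235 matched a gene. Tests covered probes that stood well above background in Cy3 or Cy5 on all 4 arrays of the muscle: 23792 in gastrocnemius and 23380 in TA. limma tested log2 ratios against 0 in each muscle, their difference between muscles, and WT (Cy3) intensity between muscles, with Benjamini-Hochberg adjustment over probes and intervals at 95%. Fits were tested on simulated data, and no value from those runs is given.

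The genes, pathway lists and marker lists were chosen with earlier results of these data known. Named are the 10 genes with all probes, Eif6, each called pathway gene, 17 pathway genes whatever their value, markers, and the 5 genes of highest r with Irs2 over 8 ratios with an SD of at least 0.2. From the pathway lists 2 genes are not reported, for a reason unrelated to their values, and enter no count of these lists. Pathway genes named for the WT comparison, and uncalled AMPK subunits, were chosen after their values were seen. Alternatives changed normalization, background, starting signal, filter, threshold, test, spread estimate, probe choice, pairing and replicates. Figures were drawn with matplotlib 3.10.9 in Python 3.11.15. Promoters are from RefSeq.

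Ratios compare dyes as well as genotypes, since no dye swap was made. With 4 arrays, many calls are lost when 1 array is left out. Probe intensities are not comparable between probes, and RNA gives no view of phosphorylation. Equal pair numbers are not known to be the same mice: across genes, ratios of equal number correlated between muscles at r -0.145, 0.0186, -0.356 and 0.0895.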

Additional observations from a re-analysis of the deposited data

Results flagged for a closer look

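In each result below, 1 of 4 arrays lay far from the other 3, measured as its gap to the nearest array over the whole range, and passed Dixon's critical value at 95%. Of 122 groups of 4 ratios looked at, 8 passed (6.56%), and chance gives about 1 in 20. In gastrocnemius, Insr (A_52_P494514) had a gap ratio of 0.868, with array 2 at -0.49 and the others between -0.01 and 0.06. Pik3r2 had 0.888, with array 1 at -0.05 and the others between -0.63 and -0.56. For Mlst8 it was 0.930, with array 2 at -0.24 and the others between 0.12 and 0.15. Stk11 followed at 0.854, with array 2 at -0.57 and the others between -0.16 and -0.09.

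In TA, Slc2a4 had a gap ratio of 0.968, with array 2 at 0.20 and the others at 0.06. Foxo1 had 0.876, with array 3 at -0.09 and the others between -0.31 and -0.28. For Eif4e it was 0.873, with array 2 at 0.70 and the others between 0.15 and 0.22. Tfeb had 0.870, with array 4 at 0.05 and the others between -0.66 and -0.57. Gastrocnemius array 2 was the distant array in 3 of the 4 gastrocnemius results. None of the genes looked at had all arrays of 1 muscle above 0 and all of the other below.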

How the results depend on the processing

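Of the values given under an alternative, 931 kept their direction and side of the threshold, 364 lost the threshold, 8 passed it and 7 changed sign; for all that moved below, the cause was not tested. Among the 10 genes, in gastrocnemius 3 were called with 1 fit over all 8 arrays and by SAM at 0.1, in place of 1. An unpaired t-test called 2 at an unadjusted p under 0.05 and 0 after Benjamini-Hochberg adjustment. That t-test is the general test of the methods, which for these arrays name SAM at a false discovery rate of 0.05. Over all genes these settings, in that order, called 2973, 3158, 3049 and 975, in place of 1947. In TA 0 were called from the scanner software's processed signals (771 of all genes in place of 2012). With offset 0 (1203 of all genes), at an adjusted p under 0.05 (840) and by SAM at 0.05 (947) 1 was called. So was 1 by the adjusted t-test (864) and with the probes of a gene averaged (1696). The t-test at an unadjusted p under 0.05 called 3 (2907), in place of 2. Between WT muscles 5 were called from processed signals (4233 of all genes in place of 2577). With loess alone (1523 of all genes), with offset 0 (2224), at an adjusted p under 0.05 (1532) and with pair number as a block (1860) 1 was called, in place of 2. The difference between muscles stayed at 0 of 10 under every alternative run. Leaving out 1 array at a time gave 0 to 2 genes in gastrocnemius, 0 to 1 in TA and 1 to 2 between WT muscles. Over all genes it gave 0 to 1782, 68 to 2014 and 1547 to 2597. Uncalled means moved as well: Mtor in gastrocnemius ran from -0.15 to -0.02 and Insr A_52_P494514 in TA from -0.17 to -0.05. The brightest Akt2 probe ran from 0.05 to 0.11 in gastrocnemius and from 0.02 to 0.14 in TA.

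For the other pathway genes, gastrocnemius gave 12 from processed signals, 11 at an adjusted p under 0.05 and 8 by the adjusted t-test in place of 27, and 0 to 22 with 1 array left out. Over all genes these settings called, in that order, 999, 633 and 975 in place of 1947, and 0 to 1782. TA gave 6 with offset 0, 1 from processed signals, 1 at an adjusted p under 0.05, 4 by SAM at 0.05 and 2 by the adjusted t-test in place of 19, and 0 to 17 with 1 array left out. All genes called in TA, in that order, were 1203, 771, 840, 947 and 864 in place of 2012, and 68 to 2014. SAM at 0.1 called 37 of the other pathway genes in gastrocnemius and 24 in TA, beside 3158 and 2604 over all genes.

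Signs changed for Insr A_52_P494514 in gastrocnemius without array 2 (-0.163 to 0.0188 with 1 array left out), Irs2 in TA without array 1 or 4 (-0.0726 to 0.166), Akt2 with its probes averaged (-0.0289 and -0.111) and Tsc2 in TA without background correction (-0.0059) or from processed signals (-0.0142). With limma, Rptor in gastrocnemius was called under 12 of 14 alternatives (0.37 to 0.57, adjusted p 0.00936 to 0.168), Rps6kb1 in TA under 11 of 14 (0.19 to 0.46, 0.0145 to 0.138) and Mtor in TA under 7 of 14 (-0.35 to -0.20, 0.0562 to 0.217). By the adjusted t-test Rptor (adjusted p 0.109) and Mtor (0.176) were not called and Rps6kb1 was (0.0705). Dim probes limit what can be seen: Tsc2 and A_52_P372321 lie near background.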

Other observations

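Pdk4, a FoxO target that was not called in either muscle and was picked out after its values were seen, had log2 ratios of -0.58, 0.46, 0.51 and -1.62 in gastrocnemius and -2.15, 0.60, -0.03 and -1.81 in TA. Arrays 1 and 4, the high arrays of Irs2 in each muscle, were the low arrays of Pdk4. Klf15 read 1.00, 0.24, 0.61 and 0.64 in gastrocnemius and 1.03, 0.18, 0.10 and 0.58 in TA, highest on arrays 1 and 4.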
